A study of Zea mays with 6 samples.

Results

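A set of 57 nuclear maize genes had transcripts at clear levels in every control leaf library and at or near 0 in the leaves of transgenic plants of the same inbred line. The members were chosen by their deposited FPKM (fragments scaled by gene length and by all mapped fragments). Each had at least 5 FPKM in each of the 3 control libraries and a mean of 0.1 FPKM or less over the 3 transgenic libraries. They are 57 of the 33702 nuclear IDs in the files, which list 33953 features in all, and 57 of the 14694 nuclear IDs (0.388%) that reached 5 FPKM in each control library. Because both genotypes entered the choice, the difference between them in these genes is a description and not a finding. The choice did not use the place of the members in the ID numbering. It bounds the spread among control libraries through the minimum of 5 FPKM. Libraries left out of a repeated choice are among the 6 that define the members.

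Both groups were leaves of the inbred line KN5585 at the 3-leaf stage, taken after 5 days without water, when the soil held 9.8% water. The control group and the transgenic group, made to synthesise poly-γ-glutamic acid, had 3 libraries each, and drought was common to both. The labels give neither the promoter and genes of the construct, nor the number of transformation events, nor whether controls were untransformed plants or segregants without the construct. Whether the 3 libraries of a genotype stem from different plants is not labelled, and the spread between them may therefore be technical. Well-watered plants were not analysed here.

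Poly-γ-glutamic acid is a polymer of glutamate joined through its side-chain carboxyl group, made in nature mainly by bacteria of the genus Bacillus. The level of a transcript in a leaf reflects how fast it is made and how fast it decays, and in drought much of this is set through the hormone abscisic acid. The prefix Zm00001d belongs to the gene set of the reference inbred line B73, whose ID numbers run in order along each chromosome, whereas the plants here were KN5585. None of the 33702 nuclear IDs, the 57 among them, was found in the RefSeq gene table (assembly Zm-B73-REFERENCE-NAM-5.0). All 251 organelle IDs were found there. The members therefore carry no symbol, product or sequence here and are given by ID. In bulk leaf RNA, fewer cells of a type and less RNA per cell cannot be told apart.

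Facts of the libraries bear on how a value near 0 is read. FPKM summed to between 1208094 and 1238707 per library, and between 26501 and 27689 features were above 0. Steps between low values of the same feature gave depths of 0.962 to 1.03, with control replicate 1 set to 1, a span of 1.07-fold. Only ratios close to 1 were allowed in this estimate, so it cannot show whether the libraries were equally deep. Absolute depth is unknown, so no counting limit can be put on a value listed at 0. As a check of the tissue, 11 of 13 plastid genes for photosynthesis could be read, while rbcL and psbD could not. All 11 were above 0 in every library and 9 were at 1 FPKM or more in every library, with a summed level of 904 to 997 FPKM in control and 1894 to 2121 FPKM in transgenic libraries. The markers did not move together. The means of ndhC, ndhK and ndhJ, of the NDH complex, were 272, 313 and 96.4 FPKM in control leaves. In transgenic leaves they were 935, 848 and 159.6 FPKM. The means of psaA, psaB and petA were higher in transgenic leaves as well. Levels of psaA lay between 3.58 and 4.62 FPKM in control and between 33.93 and 43.43 FPKM in transgenic libraries. By contrast, the means of psbA, psbC, petD, psbB and petB were lower in transgenic leaves, psbA at 159.7 and 1.30 FPKM. The part of these differences in the members' values was not tested. Nuclear markers of leaf or of other tissues could not be read because their IDs were not annotated.

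In control leaves the members spanned moderate levels, from a mean of 5.45 to a mean of 129.1 FPKM, with a median of 13.1 FPKM. Their lowest value in any control library was 5.18 FPKM, and their highest value in any transgenic library was 0.30 FPKM. The median member had 12.8, 12.9 and 13.1 FPKM in control replicates 1, 2 and 3. Of the members, 16 were highest in control replicate 1, 19 in replicate 2 and 22 in replicate 3, where the rule asks for 5 FPKM in each. Summed over the 57 members, FPKM came to 1147, 1203 and 1198 in the control libraries and to 2.41, 2.29 and 2.63 in the transgenic libraries. These sums were 0.0950%, 0.0982% and 0.0977% of all FPKM in control and at most 0.000212% in transgenic libraries, so the set was a minor part of the control transcriptome.

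**Figure D1:**
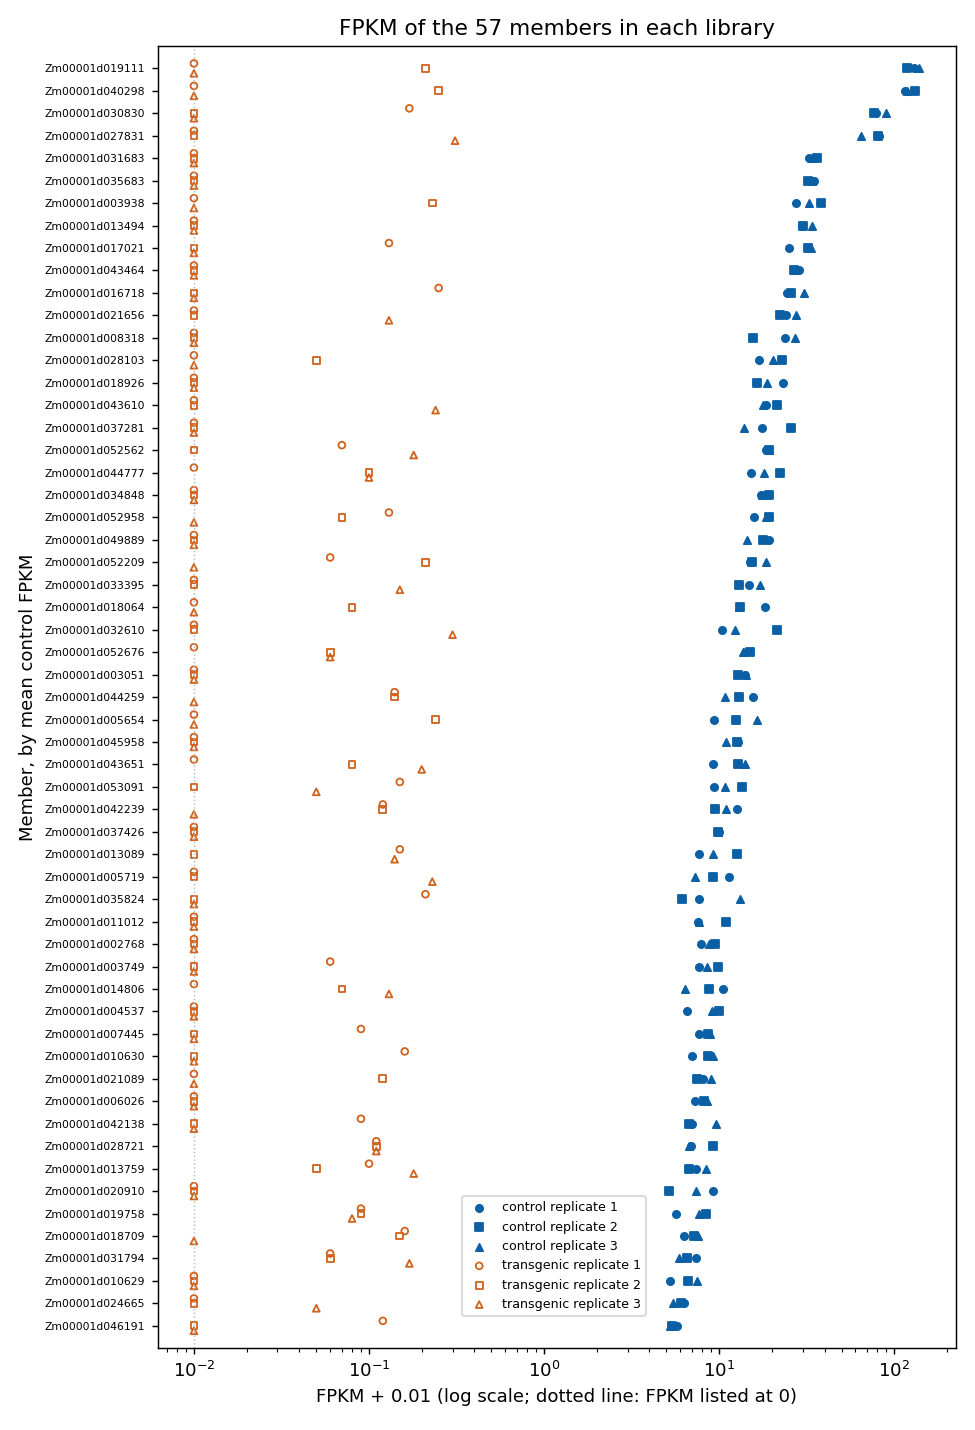
FPKM plus 0.01 on a log axis for each of the 57 members (rows, ordered by mean control FPKM) in the 3 control libraries (filled symbols) and the 3 transgenic libraries (open symbols), with the dotted line at an FPKM of 0. Control values lie between 5.18 and 138.9 FPKM, and 112 of 171 transgenic values lie on the dotted line.

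Across the 22200 features with a mean of at least 1 FPKM over the 6 libraries, limma on log2(FPKM + 1) called 45.9% lower and 27.0% higher in transgenic leaves at a Benjamini-Hochberg adjusted p under 0.05. With median-of-ratios scaling the balance turned, with 7533 lower and 7986 higher calls. On deposited FPKM, 58.6% of nuclear IDs with 5 FPKM or more in each control library were called lower. All 57 members passed the filter and were called lower, which their choice fixes. The rule likewise fixes that each member had every transgenic library below every control library, as did 47.3% of all features tested. The median log2 difference of the members, transgenic minus control, was -3.72 on the log2(FPKM + 1) scale, and that of all features tested was -0.31. With median-of-ratios scaling the median of all features moved to 0.04 and that of the members to -3.52. A log2 difference of these genes is set mostly by the control level and the pseudocount, because the transgenic values are near 0.

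A group of 4 members stood above the others in control leaves, and the same 4 were the highest in all 3 control libraries. Zm00001d019111 had 129.7, 118.7 and 138.9 FPKM in control replicates 1, 2 and 3, and 0, 0.20 and 0 FPKM in transgenic replicates 1, 2 and 3. Zm00001d040298 had 114.5, 131.7 and 118.0 FPKM in control and 0, 0.24 and 0 FPKM in transgenic libraries. Their control means, 129.1 ± 10.1 and 121.4 ± 9.06 FPKM (SD, n = 3), differed by less than the spread between libraries, and in both only transgenic replicate 2 was above 0.

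Zm00001d030830 followed with 79.0, 76.5 and 89.3 FPKM in control and 0.16, 0 and 0 FPKM in transgenic libraries. Zm00001d027831 had 82.3, 81.3 and 64.7 FPKM in control and 0, 0 and 0.30 FPKM in transgenic libraries. This pair overlapped in control leaves as well, at 81.6 ± 6.81 and 76.1 ± 9.85 FPKM, and each had a single transgenic library above 0. Together the 4 genes held 34.5% of the summed control FPKM of the set. Below them the control means broke off from 76.1 to 34.1 FPKM, with no member in between.

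The next 4 members lay close together. Zm00001d031683 had 32.5, 36.2 and 33.7 FPKM in the control libraries, and Zm00001d035683 had 34.8, 32.2 and 33.8 FPKM. Zm00001d013494 had 29.5, 29.9 and 33.8 FPKM. All 3 of these were listed at 0 in every transgenic library. Zm00001d003938 varied more among controls, with 27.4, 38.1 and 32.6 FPKM, and had 0, 0.22 and 0 FPKM in transgenic libraries. The means of these 4, between 31.1 and 34.1 FPKM, could not be ordered against a spread of 1.28 to 5.36 FPKM (SD, n = 3). The 8 highest members held 45.6% of the summed control FPKM.

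The low values fell into 4 patterns, which cannot be ranked as more or less complete because depth and gene length are unknown. In transgenic leaves 18 members were listed at 0 in all 3 libraries, 23 were above 0 in 1 library, 12 in 2 libraries and 4 in all 3. Over the set, 112 of 171 transgenic values were listed at 0 and 59 were above 0, the latter between 0.04 and 0.30 FPKM with a median of 0.11 FPKM. No transgenic library stood apart in this, with 36, 37 and 39 members listed at 0 in replicates 1, 2 and 3. Among the 23 members above 0 in 1 library, that library was replicate 1 for 9 of them, replicate 2 for 7 and replicate 3 for 7. How many fragments a value of 0.1 FPKM stands for depends on gene length, which was not used here.

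The 18 members listed at 0 in every transgenic library were not simply the weakest ones. Their control means ran from 6.45 to 34.1 FPKM with a median of 15.4 FPKM, beside a median of 14.8 FPKM for members above 0 in 1 library and 12.6 FPKM for those above 0 in 2 libraries. Of the 18, 5 had a control mean of 20 FPKM or more. After the 3 already described came Zm00001d043464, with 28.7, 26.7 and 26.9 FPKM in control libraries, and Zm00001d008318, with 23.8, 15.5 and 27.1 FPKM. Zm00001d018926 had 23.0, 16.5 and 18.7 FPKM. Zm00001d037281 had 17.5, 25.7 and 13.9 FPKM. Control replicate 2 was the lowest in the first 3 of these and the highest in Zm00001d037281. Zm00001d034848 was steadier, at 17.4, 19.4 and 17.7 FPKM, as was Zm00001d003051, at 14.03, 12.8 and 14.2 FPKM. Between these lay Zm00001d049889, with 19.2, 17.8 and 14.4 FPKM. These 7, the next in order of control mean, were picked from the 18 after their values had been seen.

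Another 4 members were above 0 in every transgenic library. Zm00001d028721 had 6.85, 9.18 and 6.74 FPKM in control libraries and 0.10 FPKM in each transgenic library. Zm00001d013759 had 7.36, 6.68 and 8.41 FPKM in control and 0.09, 0.04 and 0.17 FPKM in transgenic libraries. Both lie exactly on the limit, with a transgenic mean of 0.10 FPKM, as does the abundant member Zm00001d027831 described above. Zm00001d019758 had 5.68, 8.40 and 7.65 FPKM in control and 0.08, 0.08 and 0.07 FPKM in transgenic libraries. Zm00001d031794 had 7.33, 6.57 and 5.91 FPKM in control and 0.05, 0.05 and 0.16 FPKM in transgenic libraries. These 4 were all low in control leaves too, with means of 6.60 to 7.59 FPKM. The latter pair was named after its values had been seen. Of the 12 members above 0 in 2 transgenic libraries, 6 had the same value in both to within 0.01 FPKM.

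Members near the control minimum were Zm00001d020910, with 9.23, 5.18 and 7.34 FPKM, and Zm00001d010629, with 5.23, 6.63 and 7.48 FPKM, both listed at 0 in every transgenic library. Just outside the set on the transgenic side was Zm00001d033595, with 37.8, 33.2 and 40.01 FPKM in control and 0.16, 0 and 0.15 FPKM in transgenic libraries. Zm00001d042749 was also just outside, with 11.7, 8.30 and 6.22 FPKM in control and 0.21, 0 and 0.10 FPKM in transgenic libraries. The mean of each over the transgenic libraries was 0.103 FPKM. Just outside on the control side were Zm00001d043180, with 4.96, 6.28 and 5.93 FPKM in control and 0, 0.08 and 0 FPKM in transgenic libraries, and Zm00001d020606, with 4.92, 9.86 and 10.99 FPKM in control and 0.14, 0 and 0 FPKM in transgenic libraries. Nothing in these values sets the members apart from the genes next to them, so the limits cut through a continuous range.

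That range is seen when the limit moves. With a transgenic mean of 0 the set held 18 genes, at up to 0.5 FPKM it held 184, at up to 1 FPKM 329 and at up to 5 FPKM 1942 of the 14694 nuclear IDs. The same rule with the genotypes exchanged gave 32 nuclear IDs that were near silent in control leaves, which is 0.225% of the 14222 IDs with 5 FPKM or more in each transgenic library. At a limit of 1 FPKM the shares were 2.24% for IDs low in transgenic and 2.004% for IDs low in control leaves. At each of the 8 limits, which are nested, the share low in transgenic leaves was the higher one. With median-of-ratios scaling the counts at 0.1 FPKM lay closer together, at 46 low in transgenic and 37 low in control leaves. The difference between the shares was not tested.

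**Figure D2:**
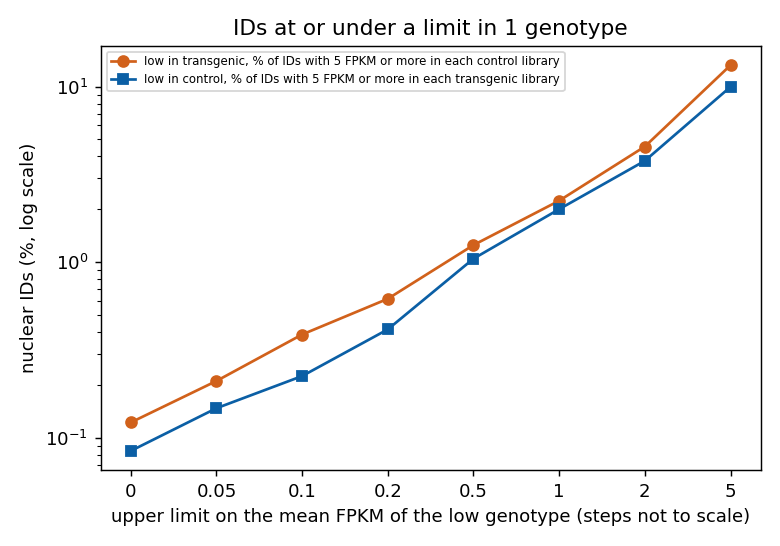
Share of nuclear IDs (percent, log axis) whose mean FPKM in 1 genotype was at or under a limit, among IDs with 5 FPKM or more in each library of the other genotype, for 8 limits from 0 to 5 FPKM. At 0.1 FPKM the shares are 0.388% for IDs low in transgenic and 0.225% for IDs low in control leaves.

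The set leaves out most genes with a large relative difference and a high control level, because a limit in FPKM asks more of an abundant transcript. Of the 14694 nuclear IDs, 106 had a transgenic mean of at most 0.01 of the control mean, and 52 of these were members. With a control mean of 160 FPKM or more there were 22 such IDs and 0 members. Between 10 and 20 FPKM there were 25, of which 20 were members. The most abundant of those outside the set, Zm00001d043121, had 8505, 9178 and 9168 FPKM in control and 37.1, 40.7 and 38.8 FPKM in transgenic libraries. It was named after its values had been seen. The share of IDs that were members was 1.044% at control means of 5 to 10 FPKM, 0.522% at 10 to 20 FPKM and 0.281% at 20 to 40 FPKM, an order that the rule favours.

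**Figure D3:**
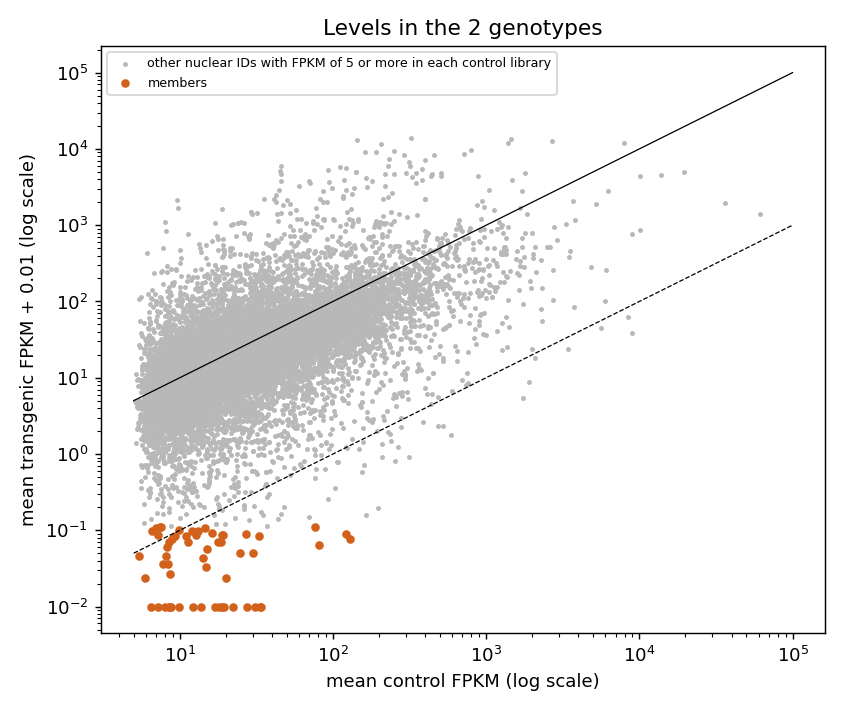
Mean transgenic FPKM plus 0.01 against mean control FPKM (log axes) for the 14694 nuclear IDs with 5 FPKM or more in each control library, with members in orange. The solid line marks equal levels and the dashed line a transgenic mean of 0.01 of the control mean; members lie at the bottom, and 54 other IDs at or under the dashed line have transgenic means above 0.1 FPKM.

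The coefficient of variation over the 3 control libraries had a median of 12.9% in the members and 9.89% in the other nuclear IDs with 5 FPKM or more in each control library. The other IDs were more abundant, with a median control mean of 25.5 FPKM, and within classes of level the medians differed less at the lower levels, which hold most members. At 5 to 10 FPKM they were 13.97% for members and 15.1% for others, at 10 to 20 FPKM 14.3% and 13.7%, and at 20 to 40 FPKM 11.5% and 10.3%. The 1 member at 40 to 80 FPKM had 12.9% beside 7.85%, and the 3 members at 80 to 160 FPKM had a median of 7.84% beside 6.27%. These differences were not tested, and the minimum of 5 FPKM in each control library bounds the spread of members and others alike. The steadiest members were Zm00001d037426, with 9.97, 9.83 and 9.84 FPKM, and Zm00001d052562, with 18.6, 19.2 and 19.2 FPKM in control libraries. The former was listed at 0 in every transgenic library, and the latter had 0.06, 0 and 0.17 FPKM. The least steady were Zm00001d035824, with 7.66, 6.10 and 13.1 FPKM, and Zm00001d032610, with 10.4, 21.4 and 12.2 FPKM. Each had a single transgenic library above 0, at 0.20 FPKM in replicate 1 and at 0.29 FPKM in replicate 3.

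To describe how the choice depends on single libraries, it was repeated on some of the libraries that define the members. This gives no independent readout of near silence. The rule was applied to 2 control and 2 transgenic libraries, and the chosen genes were read in the other 2, for all 9 ways to leave out 1 library of each genotype. Between 62 and 72 genes were chosen. In the left-out control library 56 to 62 of them had 5 FPKM or more, and in the left-out transgenic library 37 to 47 had 0.1 FPKM or less and 57 to 70 had 0.5 FPKM or less. Between 47 and 49 of the chosen genes were among the 57 members, so that they met the rule over all 6 libraries. A limit of 0.1 FPKM on the single left-out transgenic library is stricter than one on a mean of 3, and only 28 of the 57 members meet it in each transgenic library. With it, 35 to 39 genes passed in both left-out libraries, which is 48.6% to 62.9% of those chosen. Such genes meet the rule over all 6 libraries by arithmetic, so all of them are members. Their number was 35, 39 and 37 without transgenic replicates 1, 2 and 3, whichever control library was left out. With 0.5 FPKM allowed in the left-out transgenic library the share was 76.4% to 87.3%. The median of the chosen genes was 10.2 to 12.8 FPKM in the left-out control library and 0 to 0.08 FPKM in the left-out transgenic library. The highest left-out transgenic value was 13.8 FPKM, and a left-out control value was listed at 0 in 7 of the 9 readings. Of the genes chosen on 4 libraries, only 48.6% to 62.9% thus met both limits in the others, and some were far from them.

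**Figure D4:**
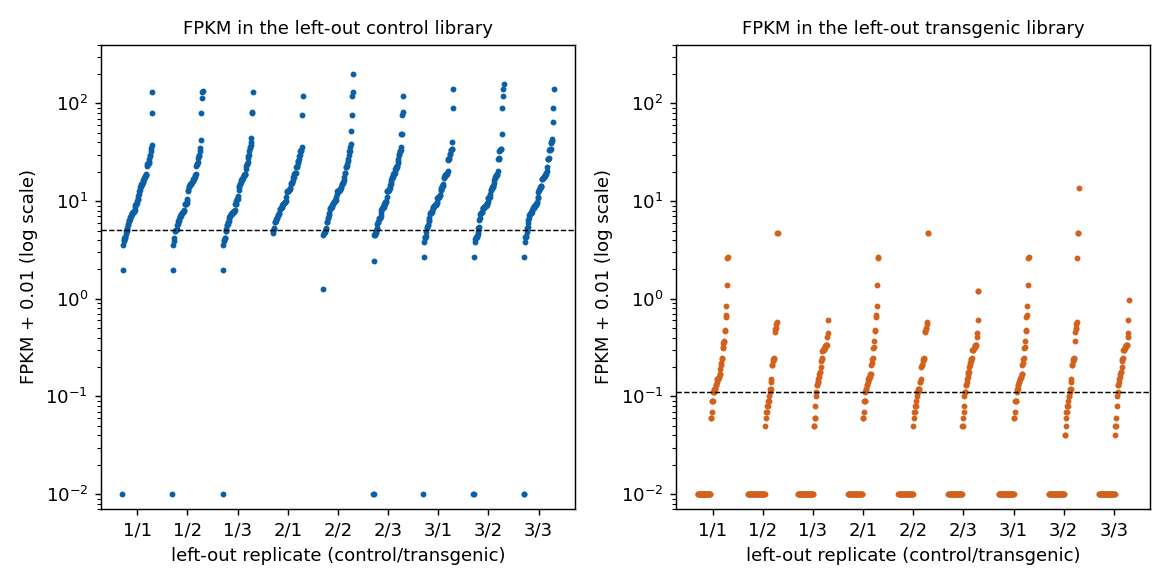
FPKM plus 0.01 (log axis) of the genes chosen on 2 control and 2 transgenic libraries, read in the left-out control library (left panel) and the left-out transgenic library (right panel), for the 9 pairs of left-out replicates; dashed lines mark the limits of 5 and 0.1 FPKM. Of 62 to 72 genes chosen, 56 to 62 lie at or above the control limit and 37 to 47 at or under the transgenic limit.

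Libraries of 1 genotype rarely differed as far as from 5 FPKM or more to 0.1 FPKM or less. Among nuclear IDs with 5 FPKM or more in 2 control libraries, 4 of 14979 had 0.1 FPKM or less in replicate 1 when it was the third, 3 of 15076 in replicate 2 and 10 of 15053 in replicate 3. In transgenic libraries the numbers were 2, 1 and 4 of 14458, 14411 and 14522 IDs. Of these 23 different IDs 0 were members, which the rule fixes. Near silence over all 3 libraries of a genotype is a different count, 57 for transgenic and 32 for control leaves.

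The place of the members in the ID numbering was read next. The members fell into 36 of the 55 blocks of 1000 ID numbers, with at most 4 in a block. No such count was made for other sets of IDs. A single pair lay within 5 numbers of each other, the adjacent Zm00001d010629 and Zm00001d010630. Zm00001d010630 had 6.96, 8.57 and 9.19 FPKM in control and 0.15, 0 and 0 FPKM in transgenic libraries, beside 5.23, 6.63 and 7.48 FPKM and 0 throughout for its neighbour. Both had their lowest control value in replicate 1 and their highest in replicate 3. Within 20 numbers there was still no other pair. These 2 genes are 3.51% of the members, and 1.05% of the other nuclear IDs with 5 FPKM or more in each control library had a member within 5 numbers. Within 1 number the shares were 3.51% and 0.232%, and within 20 numbers 3.51% and 4.21%. The shares of the members rest on this 1 pair and were not tested. Whether the pair shares sequence, so that reads of 1 could be assigned to the other, was not analysed here.

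The listed IDs on either side of the members, at most 6 numbers away, were read as well. Of 114 such neighbours, 49 had 5 FPKM or more in each control library. The adjacent pair of members accounts for the 2 of these 49 (4.08%) that were near silent in transgenic leaves. Among all 14694 nuclear IDs with that control minimum the share was 0.388%. The other 47 neighbours had a transgenic mean of 1 FPKM or more. In addition, 28 of the 112 neighbours that are no members had a transgenic mean of 0.1 FPKM or less. Of these 28, 13 were at 0.1 FPKM or less in control leaves too and 2 had a control mean of 1 FPKM or more. The share of all nuclear IDs with so low a transgenic mean was not computed. Zm00001d046192, next to the member Zm00001d046191, had 4.56, 1.38 and 4.06 FPKM in control libraries and was listed at 0 in every transgenic library. Zm00001d024664, next to Zm00001d024665, had 1.76, 2.45 and 4.33 FPKM in control and 0.05, 0 and 0.04 FPKM in transgenic libraries. These 2 fell short of the control minimum.

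Of 64 neighbours outside the set with enough FPKM to be tested, 33 (51.6%) fell, 12 (18.8%) rose and 19 did not pass (limma, adjusted over all features), where 45.9% of all features were called lower and 27.0% higher. Their median log2 difference was -0.49, beside -0.31 for all features tested. The largest fall was that of Zm00001d027832, next to the abundant member Zm00001d027831, which had 1958, 1876 and 1899 FPKM in control and 8.53, 8.01 and 9.51 FPKM in transgenic libraries (log2 difference -7.63, SE 0.07; limma, adjusted p = 3.06e-11). Zm00001d043652, next to Zm00001d043651, fell from 279.9 ± 15.8 to 32.4 ± 4.10 FPKM (n = 3), and Zm00001d028720, next to Zm00001d028721, from 160.6 ± 11.9 to 23.6 ± 2.18 FPKM. The largest rises went the other way beside members. Zm00001d017019, next to the member Zm00001d017021, rose from 0.20 FPKM in each control library to 17.2, 15.7 and 18.5 FPKM. Zm00001d043465, next to Zm00001d043464, rose from 59.2 ± 8.06 to 424 ± 11.6 FPKM, and Zm00001d018065, next to Zm00001d018064, from 4.80 ± 1.57 to 30.1 ± 1.13 FPKM. The neighbours named here, and the members beside them that are not described above, were picked after their values had been seen.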

How the data were processed

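FPKM values were computed by the authors and deposited rounded to 2 decimals, with 1 library per file. Per the labels' protocols, each library took 1.3 µg of total RNA and a SMARTER mRNA kit. In the sources used here the aligner, counting method, strand and annotation are not given, and the genome builds in the submitters' processing notes, GRCm38 and mm10, are mouse builds. Groups and replicate numbers came from the labels. The members, and the choices around them, were fixed with earlier results of these data known.

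Of 33953 features, the 22200 with a mean of at least 1 FPKM were compared on log2(FPKM + 1) with limma 3.58.1 in R 4.3.3 (eBayes with trend, two-sided, Benjamini-Hochberg adjustment over all features, threshold 0.05), after a check on simulated data. Counts were not analysed here. Other values were computed in Python 3.11.15. Named genes were taken by rule: the 8 highest members in control leaves, members just inside and just outside each limit, those with the highest and the lowest control variation, and runs of ID numbers. IDs named outside this rule are marked in the text. Alternatives were other limits, scalings, pseudocounts and filters, a replicate block, and each library left out.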

Additional observations from a re-analysis of the deposited data

How the results depend on the processing

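The number of members depended on the limits, since they cut a continuous range. It was 18, 31, 91, 184 and 329 with upper limits of 0, 0.05, 0.2, 0.5 and 1 FPKM on the transgenic mean, and 197, 128, 30 and 12 with control minimums of 1, 2, 10 and 20 FPKM. It was 28 when each transgenic library had to be at 0.1 FPKM or less. Median-of-ratios scaling shared 46 of the 57 members and a total of 1000000 per library shared 50. Leaving out 1 library gave 56 to 66 genes, with all 57 members kept without any 1 control library and 47 to 49 without any 1 transgenic library. With the genotypes exchanged the count of 32 became 12, 21, 59, 149 and 285 at the same 5 upper limits, and 37 with median-of-ratios scaling. Of genes chosen on 4 libraries, 47 to 49 were among the 57 members, and 35 to 39 of these met the stricter limits in the single left-out libraries. The median log2 difference of the members, -3.72, was -6.63 and -4.64 with pseudocounts of 0.1 and 0.5, -4.25 with a minimum mean of 5 FPKM and -3.52 with median-of-ratios scaling. The minimum of 5 FPKM left 34 members to test, all called lower. Without any filter and in all other settings all 57 were. Higher and lower calls over all features stayed within 1.5 times, but the lower ones were fewer than the higher ones with median-of-ratios scaling (7986 higher, 7533 lower). With the replicate number as a block (replicate block), 5935 were higher and 10087 lower, and all 57 members stayed lower. Deviations of same-numbered libraries showed correlations of 0.006, -0.001 and 0.015, and the libraries were treated as unpaired. For the 46 nuclear IDs named here, 621 values under alternatives had the same direction and the same call and 6 did not, all 6 of the 2 IDs with a 0 beside clear levels in 1 genotype. Zm00001d033636, which was not called, ran from -2.53 to 0.96 when 1 library was left out and turned positive in 3 of these fits (0.22, 0.43 and 0.96), and Zm00001d031823 was called lower in 3 settings. Depth is unknown, so values between 0 and 0.3 FPKM cannot be ranked.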

Other observations

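A value of 0 also occurred beside clear levels within 1 genotype. Of 17 nuclear IDs with 5 FPKM or more in 2 control libraries and at most 0.1 FPKM in the third, all 17 were listed at exactly 0 in the third, and so were 6 of 7 such IDs in transgenic libraries. Zm00001d033636 was on both lists, with 0, 44.0 and 59.1 FPKM in control and 40.5, 16.8 and 0 FPKM in transgenic libraries. Zm00001d031823 had 21.9, 0 and 24.2 FPKM in control and 0, 0 and 1.19 FPKM in transgenic libraries. These IDs were named after their values had been seen, and whether such a 0 is a failed estimate was not tested.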
